A study of Homo sapiens with 4 samples.

Results

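The genes described here are the protein-coding entries of the gene table whose symbols start with H1-, H2AC, H2BC, H3C or H4C: 70 of 46416 entries, or of 19659 protein-coding ones. They encode the linker histone H1 (10 entries) and the core histones H2A (16), H2B (17), H3 (13) and H4 (14). Read counts came from A375 cells, a human melanoma line with mutated BRAF, grown in high-glucose DMEM with fetal bovine serum. The groups were encorafenib-resistant cells (A375-R) given 10 nM encorafenib for 48 h, untreated resistant cells, sensitive cells (A375-S) given the same treatment and untreated sensitive cells. Encorafenib inhibits mutant BRAF. The sources used here do not say how the resistant line was derived or whether it is a clone. Each group had 1 library, so no spread between replicates was observed, no p-value is given, and every ratio compares 2 libraries rather than 2 conditions.

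Most human core histone genes lie in clusters and are replication-dependent: their transcripts accumulate in S phase, when new DNA has to be packed, and are degraded when DNA synthesis stops. Their mRNAs end in a conserved stem-loop in place of a poly(A) tail. SLBP binds the stem-loop and the U7 small nuclear RNP directs the cut after it, while NPAT, a substrate of cyclin E with CDK2, drives transcription of the clusters. Nucleosomes built outside S phase use replacement histones such as those encoded by H3-3A and H3-3B. The set also holds genes outside this scheme, such as H1-10, a linker histone gene outside the clusters.

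The stem-loop is shown first, because it is the feature that sets the mature transcripts of most of these genes apart from other mRNAs. Of the 70 genes, all matched GENCODE release 29 (GRCh38) by identifier, 36 carried at least 40 annotated bases after the stop codon, and 23 of those 36 held the stem-loop: 6 of 6 H2A, 7 of 11 H2B, 3 of 5 H3, 7 of 8 H4 and 0 of 6 H1 genes. The annotated end of many histone transcripts stops short of this site, so a missing match says nothing about a gene. Capitals mark the 16 bases of the stem-loop, with up to 5 transcript bases on each side, for genes of each core class.
H2AC19 (chromosome 1): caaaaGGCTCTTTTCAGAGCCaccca
H2BC21 (chromosome 1): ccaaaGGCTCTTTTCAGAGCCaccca
H3C15 (chromosome 1): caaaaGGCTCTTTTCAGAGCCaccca
H4C5 (chromosome 6): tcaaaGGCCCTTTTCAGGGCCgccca
H4C15 (chromosome 1): ccaaaGGCCCTTTTTAGGGCCgacca
The same 16 bases stood in 15 H2A, H2B and H3 genes. H4 genes had 2 forms of their own, shared by 4 genes and by 3 genes, and H2AC11 held a further form alone.

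Of the 70 genes, 55 lie on chromosome 6, 11 on chromosome 1 and 2 on chromosome 3 (H1-10 and H1-8). H2A and H2B genes often stand head to head. The RefSeq promoter table (GRCh38.p14) held 69 start windows of 64 of the genes, and 10 H2A genes had an H2B neighbour that starts on the other strand with the same short stretch between them. For the H2A and H2B pair with the most counts, and for an H3, an H4 and an H1 gene described below, the stretch or the 120 bases before the start are printed. Capitals mark the TATA box letters TATAAA, the CCAAT box letters CCAAT and the octamer ATTTGCAT, each searched on both strands.
H2AC20 and H2BC21 (chr1:149886683-149886917, plus strand): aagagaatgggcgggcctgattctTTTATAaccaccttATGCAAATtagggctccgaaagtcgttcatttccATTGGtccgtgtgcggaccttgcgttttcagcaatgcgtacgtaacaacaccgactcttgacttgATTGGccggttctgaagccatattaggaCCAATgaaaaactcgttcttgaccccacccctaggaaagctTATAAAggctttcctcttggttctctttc
H3C2 (chr6:26032100-26032219, minus strand): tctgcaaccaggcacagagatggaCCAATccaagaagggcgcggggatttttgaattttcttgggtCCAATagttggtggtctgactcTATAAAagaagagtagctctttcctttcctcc
H4C15 (chr1:149861160-149861279, minus strand): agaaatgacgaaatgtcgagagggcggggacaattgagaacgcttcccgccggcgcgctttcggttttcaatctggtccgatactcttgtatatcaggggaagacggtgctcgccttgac
H1-2 (chr6:26056471-26056590, minus strand): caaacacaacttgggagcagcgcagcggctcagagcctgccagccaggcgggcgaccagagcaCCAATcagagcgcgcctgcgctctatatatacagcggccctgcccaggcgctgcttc
CCAAT stood within the 250 bases before the start in 100% of H2A, H2B and H3 windows, 80.0% of H1 windows and 25.0% of H4 windows, against 32.8% of 21845 protein-coding windows. The octamer ATTTGCAT stood in 73.3% of H2A and 78.9% of H2B windows, and in 0% of H1 and H4 windows; the 1 match among 13 H3 windows lies in a second window of H3C4 that is also the window of H2AC7. Of protein-coding windows, 1.59% held it. TATAAA stood in 65.2% of all histone windows and 8.94% of protein-coding ones. These are matches of letters, not binding sites. H2AC20 and H2BC21, which share the first stretch, had 46 and 21 counts in treated resistant cells, 47 and 16 in untreated resistant cells, 29 and 17 in treated sensitive cells, and 235 and 114 in untreated sensitive cells.

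The libraries were made from total RNA with the SMARTer smRNA-Seq kit, a small RNA protocol, and held little mRNA. Whether counts on histone genes in such libraries follow the level of whole mRNAs was not tested. Gene tables summed to 20507667 to 33664470 counts, of which protein-coding genes took 0.845% to 1.50%, or 307026 counts in treated and 326919 in untreated resistant cells, and 215894 in treated and 435351 in untreated sensitive cells. Histone entries took 0.215% (95% Clopper-Pearson interval 0.199 to 0.232) of protein-coding counts in treated resistant cells, 0.288% (0.269 to 0.306) in untreated resistant cells, 0.211% (0.192 to 0.231) in treated sensitive cells and 0.805% (0.779 to 0.832) in untreated sensitive cells. Intervals, and the floor of 3 counts that stands for a count of 0, treat reads as independent and leave out spread between cultures. Reads amplified by PCR and carrying no molecular identifiers are not independent, so intervals may be too narrow even for counting error. Of the 8 melanocyte lineage markers, SOX10 had 73 to 157 counts per library and MITF 19 to 59, while the pigment genes PMEL, MLANA, TYR and TYRP1 had 0 or 1. DCT, another pigment gene, had 145 counts in treated and 1 in untreated resistant cells, and 332 in treated and 0 in untreated sensitive cells. The 15 markers of other cell types summed to 21 to 41 counts, with 10 to 12 of them at 0 in each library; CD68 supplied 6 to 35 of these counts and LYZ 0 to 13. Their part in the results below was not tested.

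Near-identical copies share reads, and the sources used here do not say how reads that match several copies were counted, so each class was summed. Of the 70 entries, 57 reached 10 counts in some library, 5 had 1 to 9 counts at most and 8 were at 0 in all libraries. Ratios were scaled by TMM and are log2 values with 95% counting intervals in parentheses. An entry is called beyond 2-fold where the bound nearest 0 is at least 1.0. A ratio for a single gene carries a prior count of 0.5, and its interval does not. In RNA from whole cultures, fewer cells in S phase and less histone RNA per cell cannot be told apart.

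The 4 core classes together had 527 counts in treated and 800 in untreated resistant cells, and 374 in treated and 3082 in untreated sensitive cells. Scaled, these are 21.0 (19.3 to 22.9) and 31.0 (28.9 to 33.2) CPM (counts scaled to a common library size) in resistant cells with and without drug, and 21.0 (18.9 to 23.2) and 87.7 (84.6 to 90.8) in sensitive cells with and without drug. Untreated sensitive cells thus stood above the other 3 libraries, and their interval overlapped none of the others. With encorafenib the core sum was 1.48-fold lower in resistant cells, at -0.56 (-0.72 to -0.40), and 4.17-fold lower in sensitive cells, at -2.06 (-2.22 to -1.91). The difference between these responses, resistant minus sensitive, was 1.50 (1.28 to 1.72), over libraries that the 2 drug ratios do not share.

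Between the lines, the core sum of untreated resistant cells was 2.83-fold lower than that of untreated sensitive cells, at -1.50 (-1.61 to -1.39). Under encorafenib the ratio was 0.00 (-0.19 to 0.20). Each line ratio shares its libraries with a drug ratio, so these are the same 4 sums seen from another side. Scaling by total gene-table counts in place of TMM moves every ratio by 0.13 for the drug in resistant cells, by -0.58 for the drug in sensitive cells, by 0.81 for the lines under drug and by 0.10 for the untreated lines, so the line ratio under drug depends most on the scaling.

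**Figure D1:**
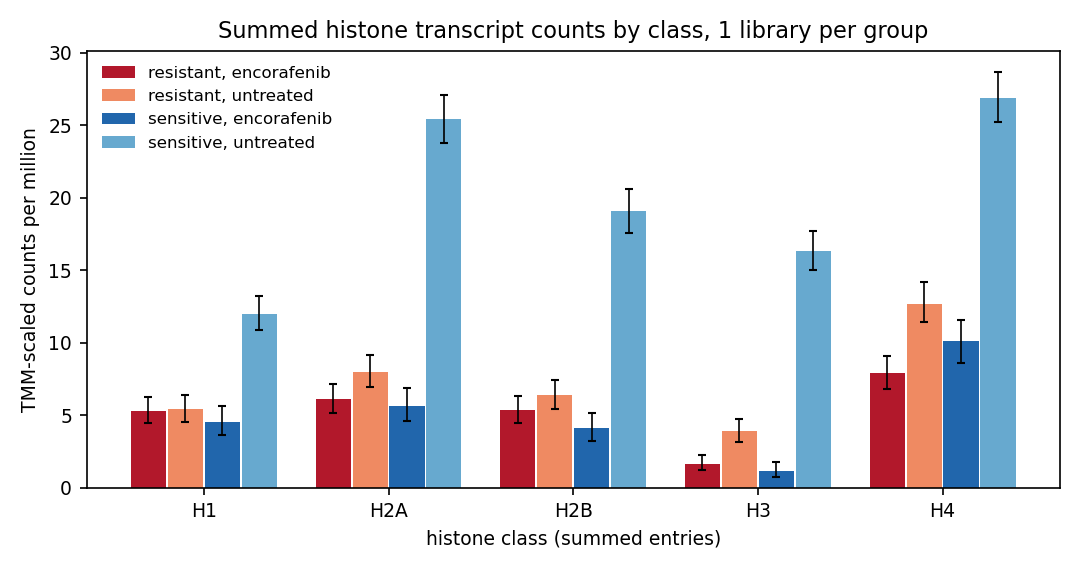
TMM-scaled CPM of each histone class (bars, with 95% Poisson counting intervals) in treated and untreated resistant cells and treated and untreated sensitive cells, 1 library each. The untreated sensitive bar is highest in all 5 classes, from 12.0 for H1 to 26.9 for H4.

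H3, the core histone whose tail carries many of the known chromatin marks, had the lowest drug ratio of the 5 classes in sensitive cells, with an interval wholly below those of the others. The class had 42 counts in treated and 101 in untreated resistant cells, and 21 in treated and 573 in untreated sensitive cells. Both treated libraries were low, and the untreated sensitive library held more H3 counts than the other 3 together. Its drug ratio was -1.23 (-1.78 to -0.69) in resistant cells and -3.79 (-4.49 to -3.16), or 13.8-fold lower, in sensitive cells. The difference of responses was 2.56 (1.75 to 3.38), with an interval that overlaps those of H1, H2A and H2B. Resistant cells without drug had 4.16-fold fewer scaled H3 counts than sensitive cells, at -2.06 (-2.38 to -1.75), an interval that overlaps that of H2A. Without its most abundant entry, H3C15, that ratio was -1.48, against -1.83 for H2A without its own. H3C15 had 0 counts in untreated resistant and 190 in untreated sensitive cells, and its reads cannot be told from those of H3C14. The value of -1.48 therefore depends on the split between these copies, and nothing is drawn from it. Under drug the line ratio was 0.51 (-0.28 to 1.34), or 1.32 (0.53 to 2.15) with total gene-table scaling.

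H2A and H2B, which enter the nucleosome together as dimers, kept close to each other. H2A had 153 counts in treated and 206 in untreated resistant cells, and 101 in treated and 893 in untreated sensitive cells. H2B had 134 in treated and 165 in untreated resistant cells, and 73 in treated and 670 in untreated sensitive cells. For both, the untreated sensitive library was high and the other 3 lay close together. The drug ratio in resistant cells was -0.39 (-0.70 to -0.08) for H2A and -0.26 (-0.60 to 0.08) for H2B. The H2B interval includes 0, and so does that of H2A with total gene-table scaling, at -0.26 (-0.57 to 0.05), or with stem-loop entries alone, at -0.22 (-0.64 to 0.21). In sensitive cells it was -2.16 (-2.47 to -1.87) for H2A and -2.22 (-2.59 to -1.87) for H2B. In sensitive cells both intervals lay wholly below those in resistant cells. The responses differed by 1.78 (1.35 to 2.20) for H2A and 1.96 (1.48 to 2.44) for H2B. Untreated resistant cells stood at -1.67 (-1.90 to -1.45) for H2A and -1.58 (-1.83 to -1.33) for H2B against untreated sensitive cells. Under drug the line ratios were 0.11 (-0.27 to 0.48) and 0.38 (-0.04 to 0.81) for H2A and H2B.

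H4, the partner of H3 in the tetramer at the centre of the nucleosome, had the drug ratio nearest 0 of the core classes in sensitive cells, with an interval wholly above theirs. It had 198 counts in treated and 328 in untreated resistant cells, and 179 in treated and 946 in untreated sensitive cells. The drug ratio was -0.69 (-0.95 to -0.43) in resistant and -1.42 (-1.66 to -1.19) in sensitive cells, a difference of responses of 0.73 (0.39 to 1.08). The interval of that difference overlaps that of H1. Without drug the line ratio was -1.08 (-1.27 to -0.90), or -1.42 without H4C3, its most abundant entry. Under drug it was -0.35 (-0.65 to -0.05), a direction that turned to 0.46 when libraries were scaled by total gene-table counts.

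H1, which binds the DNA between nucleosomes, had 133 counts in treated and 140 in untreated resistant cells, and 81 in treated and 423 in untreated sensitive cells. Its drug ratio was -0.03 (-0.39 to 0.32) in resistant cells, which allows a change of up to 1.31-fold in the lower direction. In sensitive cells it was -1.40 (-1.77 to -1.06). The linker class thus had an interval including 0 in resistant cells and one wholly below 0 in sensitive cells. The responses differed by 1.37 (0.89 to 1.86), and the line ratios were 0.22 (-0.19 to 0.64) under drug and -1.15 (-1.43 to -0.87) without it. Left with the 6 H1 genes of chromosome 6, a sum chosen after the data were seen, the drug ratios were 0.01 (-0.44 to 0.45) in resistant and -1.30 (-1.73 to -0.89) in sensitive cells.

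**Figure D2:**
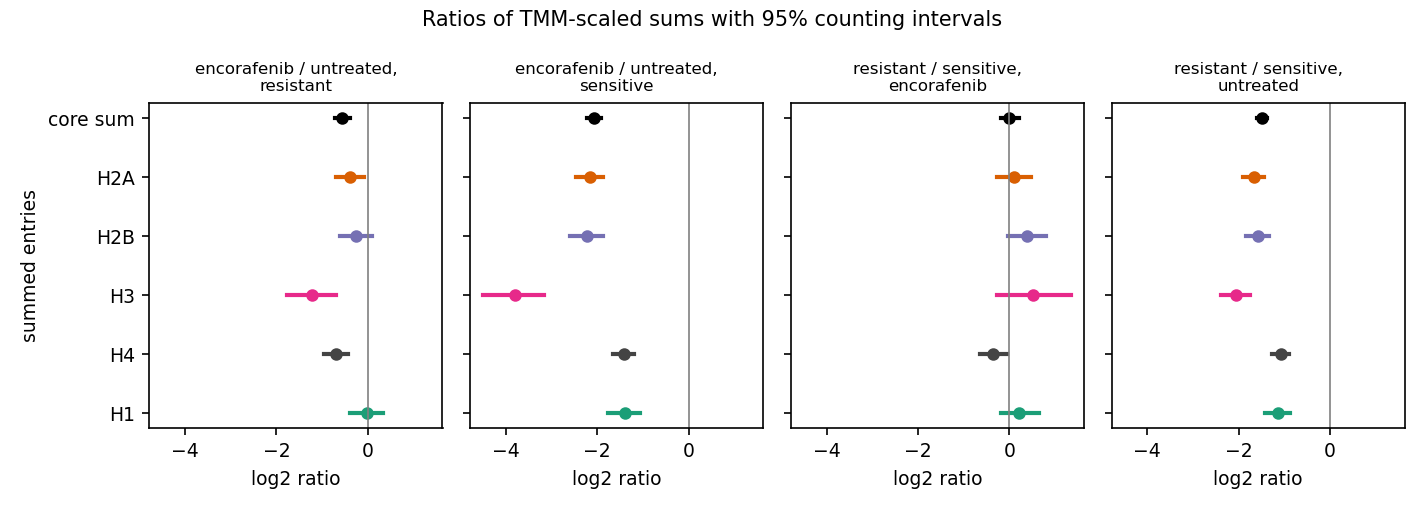
Log2 ratios of TMM-scaled sums (points) with 95% counting intervals (lines) for the core sum and the 5 classes in 4 comparisons of libraries. All 6 sums lie below -1 in sensitive cells with drug over without, while under drug the core ratio between lines is 0.00.

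Classes did not keep the same proportions, and these proportions do not depend on scaling. They may depend on how reads were assigned where entries of different classes overlap in the annotation, such as H4C15 with H3C15 and H2AC19. H3 made up 6.36% (4.62 to 8.50) of histone counts in treated and 10.7% (8.84 to 12.9) in untreated resistant cells, and 4.62% (2.88 to 6.97) in treated and 16.3% (15.1 to 17.6) in untreated sensitive cells. H4 made up 30.0% (26.5 to 33.7) and 34.9% (31.8 to 38.0) in resistant cells with and without drug, and 39.3% (34.8 to 44.0) and 27.0% (25.5 to 28.5) in sensitive cells with and without drug. The H3 to H4 ratio of counts was 0.212 (0.148 to 0.297) in treated and 0.308 (0.244 to 0.386) in untreated resistant cells, and 0.117 (0.0709 to 0.185) in treated and 0.606 (0.545 to 0.673) in untreated sensitive cells. There were fewer H3 counts per H4 count in treated sensitive cells than in any other library. The log2 change of this ratio with drug was -2.37 (-3.04 to -1.70) in sensitive cells and -0.54 (-1.12 to 0.04) in resistant cells. The H2A to H2B ratio, by contrast, was 1.14 (0.900 to 1.45) in treated and 1.25 (1.01 to 1.54) in untreated resistant cells, and 1.38 (1.01 to 1.90) in treated and 1.33 (1.20 to 1.48) in untreated sensitive cells, and its change had an interval that included 0 in all 4 comparisons. H1 relative to the core sum was 0.252 (0.207 to 0.306) in treated and 0.175 (0.145 to 0.210) in untreated resistant cells, and 0.217 (0.168 to 0.276) in treated and 0.137 (0.124 to 0.152) in untreated sensitive cells.

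Replacement histones gave a comparison within each library. H3-3A and H3-3B, which encode the same replacement H3 protein, had 155 and 121 counts in treated resistant cells, 184 and 146 in untreated resistant cells, 179 and 94 in treated sensitive cells and 229 and 205 in untreated sensitive cells. Clustered H3 counts per count of these genes were 0.152 (0.107 to 0.211) in treated and 0.306 (0.242 to 0.384) in untreated resistant cells, and 0.0769 (0.0469 to 0.120) in treated and 1.32 (1.16 to 1.50) in untreated sensitive cells. The log2 change of that ratio with drug was -1.01 (-1.58 to -0.44) in resistant and -4.10 (-4.77 to -3.44) in sensitive cells. Between the lines it was 0.98 (0.19 to 1.78) under drug and -2.11 (-2.48 to -1.74) without it. For H2A, counts per count of H2AZ1 and H2AZ2, which encode a variant found at promoters, were 2.89 (2.10 to 4.02) in treated and 4.58 (3.30 to 6.47) in untreated resistant cells, and 4.21 (2.68 to 6.87) in treated and 9.71 (7.82 to 12.2) in untreated sensitive cells.

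**Figure D3:**
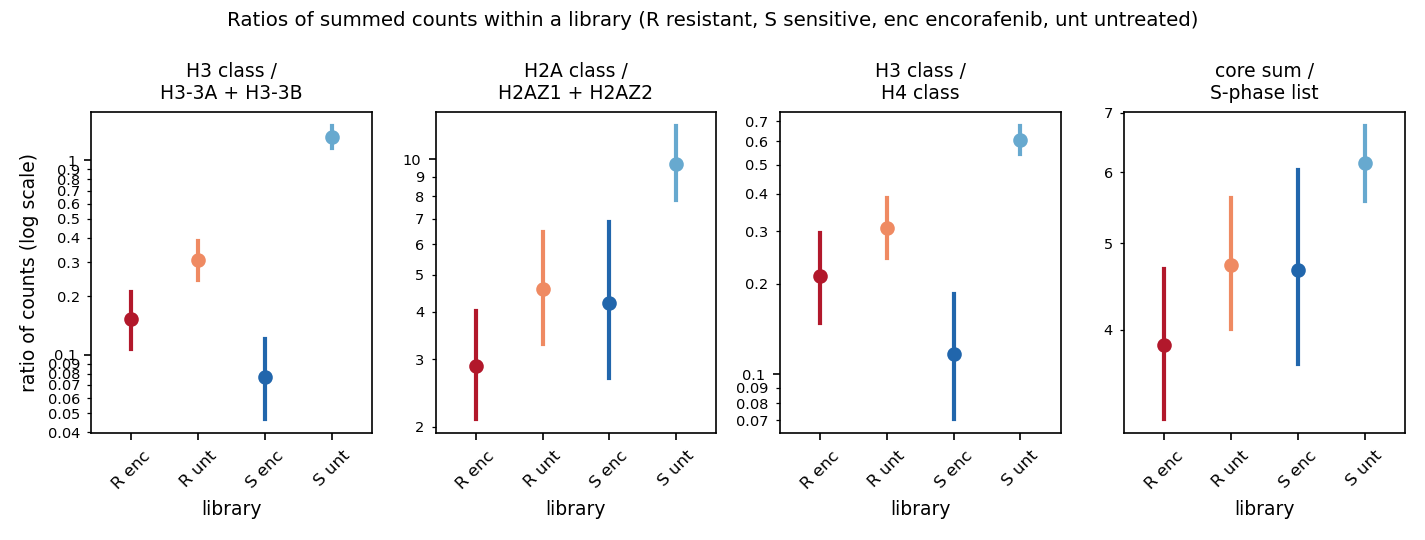
Ratios of summed counts within each library (points, log axes, 95% counting intervals) for treated and untreated resistant cells and treated and untreated sensitive cells. Untreated sensitive cells are highest in all 4 panels, and clustered H3 over H3-3A and H3-3B runs from 0.0769 to 1.32.

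Single genes were read against the whole table. Of the 57 entries tested, 26 reached 10 counts in untreated sensitive cells and in no other library, so the minimum count itself favours high values there, and counts and medians over the 57 are a description that supports nothing. In sensitive cells, 23 of the 57 (40.4%) were lower with drug beyond 2-fold and 0 were higher, against 2.48% lower and 2.15% higher of the 7916 protein-coding genes tested. Of the 31 entries that reached 10 counts in another library, 15 were lower with drug in sensitive cells and 7 lower in resistant cells between untreated lines, against 2.35% and 0.406% of the 6893 protein-coding genes chosen likewise. By class the 23 were 7 of 11 H3, 7 of 13 H2A, 5 of 15 H2B, 3 of 12 H4 and 1 of 6 H1 entries. The median ratio of the 57 was -2.15, or -2.23 with entries at 0 set to 3 counts, against -0.06 over all protein-coding genes. In resistant cells 1 entry, H3C14, whose reads cannot be told from those of H3C15, was lower with drug, as was the pair summed, and 0 were higher, against 1.52% lower and 1.16% higher of protein-coding genes. The median there was -0.51, or -0.37 over the 52 entries that the 3-count floor allows, against -0.02.

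Between untreated lines, 16 of 57 entries (28.1%) were lower in resistant cells beyond 2-fold and 0 higher, against 0.808% lower and 1.01% higher of protein-coding genes. They were 6 H2A, 5 H2B, 3 H3, 1 H4 and 1 H1 entries, and the median of the 57 was -1.65, or -1.72 with zeros at 3 counts, against -0.02. Under drug 0 entries differed between the lines beyond 2-fold, against 0.682% higher and 0.493% lower of protein-coding genes. Of their intervals, 3 lay above 0 and 4 below, and the median was 0.04, the same as over all protein-coding genes. H3C14 and H4C14 were among those above 0, and their near-identical copies H3C15 and H4C15 among those below. Summed, these pairs had intervals that included 0, at -0.01 (-1.88 to 1.99) for H3 and -0.41 (-0.99 to 0.16) for H4. With each of 3 pairs of near-identical copies, described below, summed as 1 entry, 54 were tested and 16 were lower in resistant cells between untreated lines. Untreated sensitive cells had the highest scaled level for 53 of these 54, but 24 of them reached 10 counts there and nowhere else, so the minimum count itself favours that library. H4C12, highest in treated sensitive cells, was the exception.

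**Figure D4:**
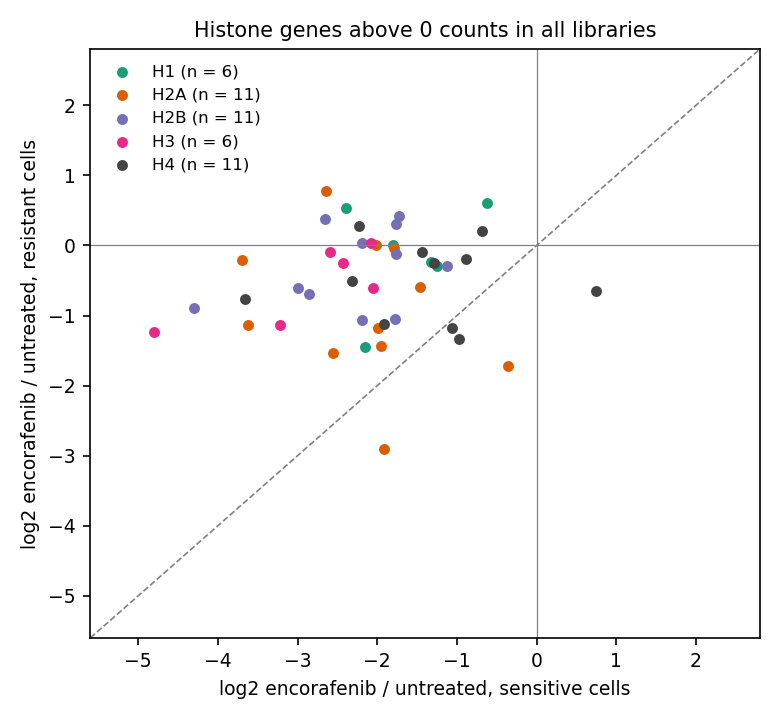
Log2 ratio of encorafenib over untreated for each of the 45 tested histone entries above 0 counts in all libraries. Points are coloured by class, with sensitive cells on the x axis and resistant cells on the y axis. Of the 45 points, 40 lie above the dashed line of equal response, that is, with the more negative ratio in sensitive cells. Some entries reached the minimum count in untreated sensitive cells alone, which favours high values there. The count of 40 is therefore a description that supports nothing.

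Among H3 genes, which encode the replication-dependent H3 proteins, H3C15 and H3C14 on chromosome 1 cannot be separated, since their annotated transcripts are identical over all 1656 bases. H3C15 had 0 counts in treated and 0 in untreated resistant cells, and 5 in treated and 190 in untreated sensitive cells. H3C14 had 7 in treated and 39 in untreated resistant cells, and 0 in treated and 37 in untreated sensitive cells. The split between the copies therefore differed between the lines, and their own values are not read further. The counts of entries above hold them singly unless copies are said to be summed. Together they had 7 and 39 counts in resistant cells with and without drug, and 5 and 227 in sensitive cells with and without drug. The pair's drug ratio was -2.44 (-3.84 to -1.26) in resistant and -4.52 (-6.16 to -3.28) in sensitive cells, and its line ratios were -0.01 (-1.88 to 1.99) under drug and -2.09 (-2.62 to -1.60) without.

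The other H3 genes with at least 50 counts in a library lie on chromosome 6. H3C3 had 5 counts in treated and 12 in untreated resistant cells, and 5 in treated and 101 in untreated sensitive cells. Its ratio was -3.22 (-5.01 to -2.09) with drug in sensitive cells and -2.57 (-3.63 to -1.76) between untreated lines. H3C2, whose promoter stretch is printed above, had 8 counts in treated and 20 in untreated resistant cells, and 1 in treated and 82 in untreated sensitive cells. A single count in the treated sensitive library leaves its drug ratio there, -4.80 (-10.70 to -2.86), loosely bounded. In resistant cells the drug ratio was -1.23 (-2.67 to -0.04) for H3C2 and -1.14 (-3.08 to 0.39) for H3C3. The remaining H3 entries had at most 41 counts in a library.

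H4C3 had the most counts of any entry summed over the 4 libraries. It had 68 counts in treated and 153 in untreated resistant cells, and 41 in treated and 308 in untreated sensitive cells. The drug ratio was -1.12 (-1.56 to -0.71) in resistant and -1.91 (-2.44 to -1.45) in sensitive cells, and untreated resistant cells stood at -0.56 (-0.85 to -0.28) against untreated sensitive cells. The H4 genes described here encode the same protein.

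H4C15 had 38 counts in treated and 34 in untreated resistant cells, and 49 in treated and 157 in untreated sensitive cells. Its copy H4C14 had 17 in treated and 30 in untreated resistant cells, and 3 in treated and 87 in untreated sensitive cells. The copies share 1547 identical bases, so their unequal drug ratios in sensitive cells, -0.69 (-1.19 to -0.23) for H4C15 and -3.66 (-6.18 to -2.28) for H4C14, are uncertain. H4C15 also overlaps H2AC19 and H3C15 in the annotation, so reads of these entries cannot be assigned with certainty. As a pair they had 55 and 64 counts in resistant cells with and without drug, and 52 and 244 in sensitive cells with and without drug, and their drug ratio was -0.18 (-0.72 to 0.36) in resistant and -1.25 (-1.71 to -0.81) in sensitive cells.

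Other H4 genes of chromosome 6 had smaller counts. H4C6 had 9 in treated and 24 in untreated resistant cells, and 23 in treated and 91 in untreated sensitive cells. H4C5 had 22 in treated and 27 in untreated resistant cells, and 17 in treated and 84 in untreated sensitive cells. H4C11 had 16 in treated and 19 in untreated resistant cells, and 15 in treated and 56 in untreated sensitive cells. All were highest in untreated sensitive cells, and none passed 2-fold at the bound in any comparison. The drug ratio in sensitive cells was -0.98 (-1.73 to -0.33) for H4C6, -1.29 (-2.17 to -0.56) for H4C5 and -0.89 (-1.85 to -0.08) for H4C11. The line ratio of H4C6 under drug was -1.80 (-3.14 to -0.68). H4C12, chosen after its values were seen, was the 1 entry of 57 with a positive drug ratio in sensitive cells, at 0.75 (-0.56 to 2.01), on 11 counts with drug and 13 without.

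The H2A genes with most counts lie on chromosome 1. H2AC19 had 69 counts in treated and 73 in untreated resistant cells, and 36 in treated and 248 in untreated sensitive cells. Its copy H2AC18, which shares 549 identical bases with it, was at 0 in all libraries but untreated sensitive cells, where it had 35 counts. As a pair they had 69 and 73 counts in resistant cells with and without drug, and 36 and 283 in sensitive cells with and without drug. The pair's drug ratio was -0.04 (-0.54 to 0.45) in resistant and -1.99 (-2.54 to -1.49) in sensitive cells, and untreated resistant cells stood at -1.51 (-1.90 to -1.13) against untreated sensitive cells.

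H2AC20 had 46 counts in treated and 47 in untreated resistant cells, and 29 in treated and 235 in untreated sensitive cells. Its drug ratio was 0.01 (-0.61 to 0.63) in resistant and -2.02 (-2.65 to -1.48) in sensitive cells. The untreated line ratio was -1.86 (-2.36 to -1.42). Only the untreated sensitive library stood apart for this gene.

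H2AC14 had 3 counts in treated and 6 in untreated resistant cells, and 0 in treated and 57 in untreated sensitive cells, at least 9.63-fold lower with drug in sensitive cells against a floor of 3 counts per library. H2AC8 had 5 in treated and 8 in untreated resistant cells, and 10 in treated and 57 in untreated sensitive cells. Its ratio was -1.47 (-2.67 to -0.55) with drug in sensitive cells and -2.31 (-3.67 to -1.31) between untreated lines. Both genes lie on chromosome 6 and start beside an H2B gene. The other H2A entries tested had 18 to 49 counts in untreated sensitive cells.

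Among H2B genes, H2BC21, which shares its start region with H2AC20, had 21 counts in treated and 16 in untreated resistant cells, and 17 in treated and 114 in untreated sensitive cells. The drug ratio was 0.42 (-0.57 to 1.47) in resistant and -1.73 (-2.59 to -1.02) in sensitive cells, and the untreated line ratio was -2.35 (-3.24 to -1.63). H2BC18, also on chromosome 1, had 15 in treated and 33 in untreated resistant cells, and 10 in treated and 94 in untreated sensitive cells. It overlaps FCGR1A in the annotation, so its reads cannot be assigned with certainty. Its drug ratio was -1.07 (-2.08 to -0.18) in resistant and -2.19 (-3.36 to -1.31) in sensitive cells.

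On chromosome 6, H2BC12 had 29 counts in treated and 24 in untreated resistant cells, and 10 in treated and 70 in untreated sensitive cells. H2BC7 had 5 in treated and 10 in untreated resistant cells, and 1 in treated and 58 in untreated sensitive cells. H2BC7 passed 2-fold at the bound with drug in sensitive cells, at -4.30 (-10.21 to -2.34), and between untreated lines, at -2.03 (-3.22 to -1.11). H2BC12 did not, at -1.77 (-2.95 to -0.86) and -1.08 (-1.83 to -0.41) in the same comparisons. H2BC4 had 19 in treated and 24 in untreated resistant cells, and 13 in treated and 58 in untreated sensitive cells. H2BC5 had 11 in treated and 24 in untreated resistant cells, and 8 in treated and 57 in untreated sensitive cells. In the annotation H2BC12 overlaps H4C9, and H2BC5 overlaps the lncRNA gene H2BC6-AS1 and the pseudogene LARP1P1, so their reads cannot be assigned with certainty. The drug ratio in sensitive cells was -1.13 (-2.17 to -0.29) for H2BC4 and -1.78 (-3.13 to -0.78) for H2BC5.

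**Figure D5:**
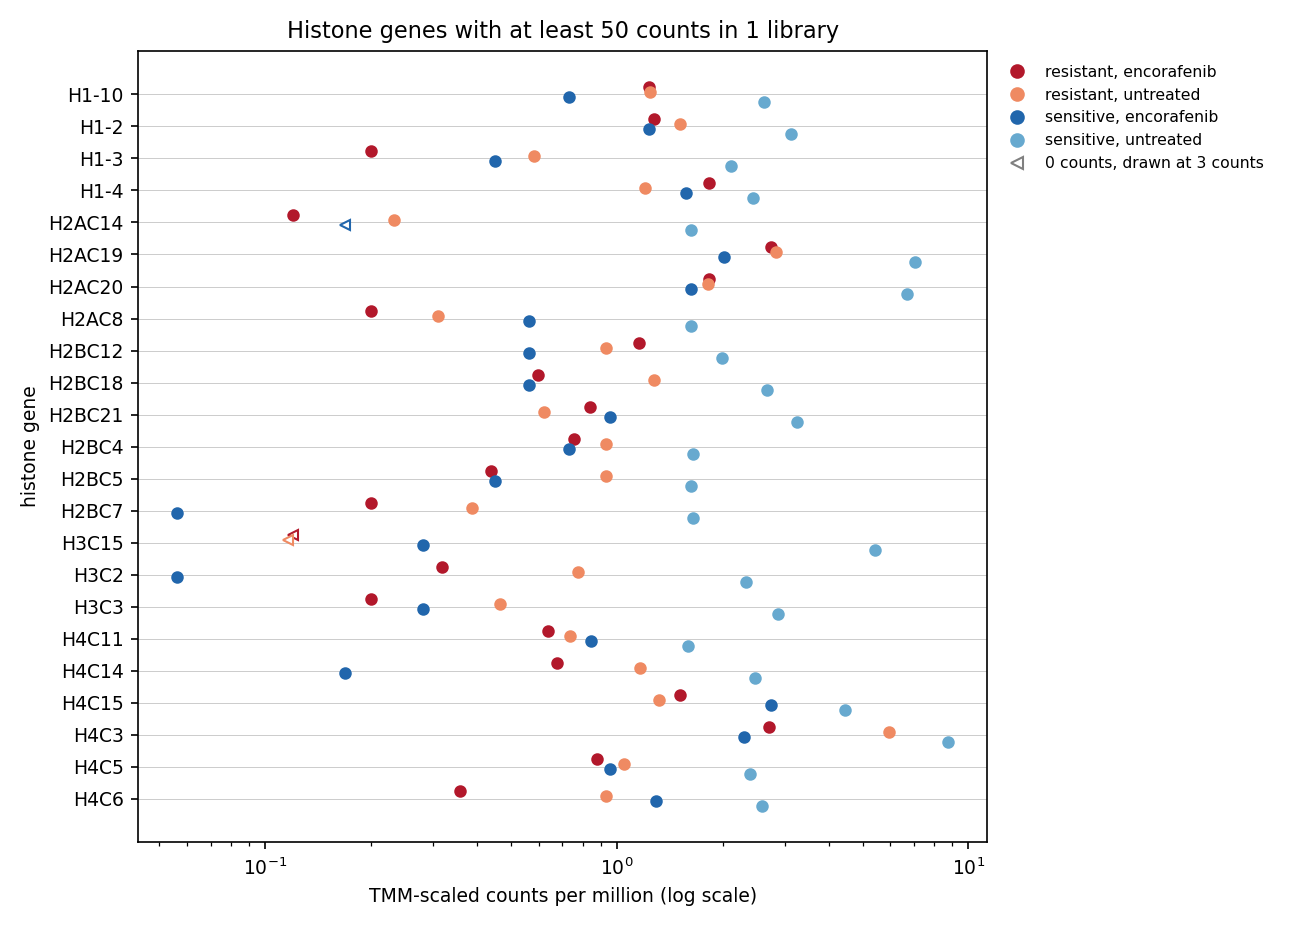
TMM-scaled CPM (log axis) of the 23 histone genes that reached 50 counts in any library, in treated and untreated resistant cells and treated and untreated sensitive cells. Untreated sensitive cells are rightmost for all 23, but 21 of these reached 50 counts in that library alone, so their choice favours it; an open triangle stands for 0 counts, drawn at 3 counts.

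Differences between linker genes were not tested. H1-4 had 46 counts in treated and 31 in untreated resistant cells, and 28 in treated and 86 in untreated sensitive cells. H1-2 had 32 in treated and 39 in untreated resistant cells, and 22 in treated and 110 in untreated sensitive cells. H1-3 had 5 in treated and 15 in untreated resistant cells, and 8 in treated and 74 in untreated sensitive cells. H1-3 was the only linker gene beyond 2-fold at the bound, at -2.15 (-3.49 to -1.18) with drug in sensitive cells and -1.82 (-2.76 to -1.04) between untreated lines. H1-4 had the drug ratio closest to 0 in sensitive cells, -0.62 (-1.31 to -0.01), against 0.60 (-0.08 to 1.32) in resistant cells. H1-2 stood at -0.24 (-0.97 to 0.47) in resistant and -1.32 (-2.07 to -0.67) in sensitive cells.

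Outside the clusters, H1-10 had 31 counts in treated and 32 in untreated resistant cells, and 13 in treated and 92 in untreated sensitive cells. It was thus highest in the same library as the clustered genes, with a drug ratio of -1.80 (-2.80 to -1.00) in sensitive cells. H1-10 overlaps an antisense gene, H1-10-AS1, and the reads of the 2 cannot be told apart without strand.

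Genes of S phase were read beside the histones. The 18 of 28 listed S-phase genes that reached 10 counts included 3 that were lower with drug beyond 2-fold in sensitive cells and 0 in resistant cells, 1 lower in resistant cells between untreated lines and 0 between lines under drug, with 0 higher in any comparison. Of all protein-coding genes tested, 2.48% and 0.808% were lower in the comparisons with calls. As for the histones, the minimum count favours untreated sensitive cells. CLSPN, described below, reached 10 counts in that library alone, so these calls are a description that supports nothing. All 28 summed to 137 counts in treated and 169 in untreated resistant cells, and 80 in treated and 502 in untreated sensitive cells. The drug ratio of that sum was -0.26 (-0.60 to 0.07) in resistant and -1.67 (-2.03 to -1.33) in sensitive cells, and the line ratios were 0.28 (-0.13 to 0.70) under drug and -1.12 (-1.38 to -0.87) without. The S-phase sum, too, was highest in untreated sensitive cells, and the part of S phase in the histone results was not tested.

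Core histone counts per count of the S-phase list were 3.85 (3.18 to 4.68) in treated and 4.73 (4.01 to 5.62) in untreated resistant cells, and 4.67 (3.66 to 6.03) in treated and 6.14 (5.58 to 6.76) in untreated sensitive cells. The log2 change of this ratio was -0.30 (-0.66 to 0.06) with drug in resistant cells, -0.39 (-0.77 to -0.02) with drug in sensitive cells, -0.28 (-0.72 to 0.16) between lines under drug and -0.38 (-0.65 to -0.10) between untreated lines. RRM2, the small subunit of ribonucleotide reductase, had 3 counts in treated and 10 in untreated resistant cells, and 0 in treated and 35 in untreated sensitive cells. CLSPN, which relays replication stress, had 1 in treated and 8 in untreated resistant cells, and 1 in treated and 30 in untreated sensitive cells. DTL, part of a ubiquitin ligase that acts on replication factors, was the gene called between untreated lines, with 0 counts in resistant and 15 in sensitive cells. Among the largest of the list were MCM7 and MCM3, subunits of the replicative helicase, and the sliding clamp PCNA. MCM7 had 4 counts in treated and 12 in untreated resistant cells, and 7 in treated and 59 in untreated sensitive cells, while MCM3 and PCNA had intervals that included 0 with drug in both lines.

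The transcription list held 10 genes, 7 of them tested. E2F1, which drives S-phase genes, had 5 counts in treated and 8 in untreated resistant cells, and 1 in treated and 31 in untreated sensitive cells, and was lower beyond 2-fold with drug in sensitive cells, at -3.41 (-9.32 to -1.39). CDK2 had 5 in treated and 34 in untreated resistant cells, and 4 in treated and 25 in untreated sensitive cells, and was lower beyond 2-fold with drug in resistant cells, at -2.61 (-4.44 to -1.36). These were the 2 calls of the list, with 0 higher in any comparison, against 2.48% lower with drug in sensitive and 1.52% in resistant cells over all protein-coding genes. E2F1 reached 10 counts in untreated sensitive cells alone, so the minimum count favours its call. The 4 genes of the list with most counts, YY1, POU2F1, CASP8AP2 and GON4L, did not pass 2-fold at the bound. POU2F1, whose protein binds the octamer, had 13 counts in treated and 17 in untreated resistant cells, and 13 in treated and 46 in untreated sensitive cells.

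Of 17 listed genes for cutting the histone 3′ end, 15 were tested and 0 passed 2-fold in any comparison, and likewise 0 of 13 tested of 15 genes for decay of histone mRNA; with 0.493% to 2.48% of protein-coding genes called per direction and comparison, counts of 0 in lists of this size are near the background. Summed, the 3′ end list had drug ratios of -0.28 (-0.47 to -0.10) in resistant and -0.66 (-0.87 to -0.46) in sensitive cells, and the decay list -0.16 (-0.38 to 0.06) and -0.34 (-0.57 to -0.12). SSRP1, a chaperone subunit, had the lowest drug ratio in sensitive cells among the 4 largest of the 3′ end list, at -1.28 (-1.95 to -0.69). It also counts in the chaperone list below, and no result here ties it to cutting of the histone 3′ end. The others, SNRPE, SNRPD3 and SNRPB, which build the ring shared by small nuclear RNPs, lay between -0.96 and -0.56. RNU7-1, the RNA of the U7 particle, had 1 to 3 counts per library and allows no comparison. SLBP, named after its values were seen, had 5 counts in treated and 10 in untreated resistant cells, and 5 in treated and 12 in untreated sensitive cells. In the decay list the largest were TUT7 and TUT4, which add uridines to histone mRNA, LSM3 and SLIRP. Their drug ratios in sensitive cells lay between -0.97 and -0.11. SLIRP counts in the sums of the list, but no result here ties it to histone mRNA decay.

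Histone chaperones, which escort new histones to DNA, had 17 of 20 genes tested. ASF1B, a chaperone of H3 and H4, was at 0 with drug against 17 counts without in sensitive cells and was the 1 call, with 2 counts in each resistant library, against 2.48% of protein-coding genes lower in that comparison. The sum had drug ratios of 0.04 (-0.10 to 0.19) in resistant and -0.45 (-0.59 to -0.32) in sensitive cells. The largest were NAP1L1, a chaperone of H2A and H2B, ATRX, which deposits the replacement H3, and the FACT subunits SUPT16H and SSRP1. ATRX had 179 counts in treated and 94 in untreated resistant cells, and 126 in treated and 222 in untreated sensitive cells, with a drug ratio of 0.97 (0.60 to 1.35) in resistant cells, the only interval above 0 of the list there.

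Replacement and variant histones had 8 of 15 genes tested, and their sum had drug ratios of -0.13 (-0.33 to 0.07) in resistant and 0.03 (-0.16 to 0.23) in sensitive cells. H2AJ, an H2A variant outside the clusters, was the 1 call, higher with drug in sensitive cells, against 2.15% of protein-coding genes: it had 15 counts in treated and 5 in untreated resistant cells, and 8 in treated and 0 in untreated sensitive cells. H3-3A stood at 0.63 (0.34 to 0.91) with drug in sensitive cells and H3-3B at -0.14 (-0.51 to 0.22). H2AZ1 stood at -1.04 (-2.25 to -0.07) and MACROH2A1, a large H2A variant of silent chromatin, at -0.58 (-1.37 to 0.11) in the same comparison. The sum rests mostly on H3-3A and H3-3B. The median of the 8 genes tested was -0.70 in that comparison, with 2 intervals above 0 and 3 below, so sum and median differ in sign.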

How the data were processed

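The authors deposited raw read counts per gene for 4 libraries of total RNA (RNeasy Mini; SMARTer smRNA-Seq kit; Illumina NextSeq), per the labels' protocols and file headers. Reads were placed on hg19 according to the submitters' processing notes. The sources used here name no aligner, counter, strand setting or rule for reads that match several copies. Libraries were scaled with TMM (edgeR 4.0.16, R 4.3.3) over the 8865 genes that reached 10 counts in any library. Ratios of 2 libraries have exact conditional (Clopper-Pearson) 95% intervals (scipy 1.17.1); differences of ratios have delta-method intervals. The method was tested on simulated counts drawn independently, as the intervals assume. That run checked the computation and could not show whether the intervals hold for real reads. With 1 library per group no p-value was computed.

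Named are the class sums, genes that reached 50 counts in any library, H1-10 and RNU7-1, and, of 8 gene lists, the 4 largest members and those beyond 2-fold; 2 genes that this rule names are not reported here. Members and lists were chosen with earlier results of these data known. Stem-loops were read from GENCODE release 29 transcripts, and promoters from RefSeq (GRCh38.p14), matched by identifier; no coordinates were carried between builds. Alternatives changed the scaling (DESeq2 1.42.0 size factors, total counts, protein-coding genes alone), the count minimum, the interval level and the entries summed. MicroRNA tables were not used.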

Additional observations from a re-analysis of the deposited data

Results flagged for a closer look

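The response to encorafenib differed between the lines for all 6 sums examined. Each is listed because the counting interval of the difference, resistant minus sensitive in log2, did not include 0; with 1 library per group, no test against replicate spread was possible. The core histone sum had a difference of 1.50 (1.28 to 1.72). The class sums had differences of 2.56 (1.75 to 3.38) for H3, 1.96 (1.48 to 2.44) for H2B, 1.78 (1.35 to 2.20) for H2A, 1.37 (0.89 to 1.86) for H1 and 0.73 (0.39 to 1.08) for H4. The S-phase list moved with them, with drug ratios of -0.26 (-0.60 to 0.07) in resistant and -1.67 (-2.03 to -1.33) in sensitive cells, and its part in the differences was not tested.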

How the results depend on the processing

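Of 270 recomputed sums, 245 moved by less than their counting interval, 24 moved by more, and 1 turned round. The 270 include a setting that takes entries with identical counts once. As 0 entries above 0 counts were identical to another, that setting could move no sum, and the 245 overstate how stable the sums were. Of 40 recomputed counts of genes beyond 2-fold, 30 stayed within 1.5 times. Scaling by total gene-table counts gave the most movement. It put the drug ratio in sensitive cells at -2.64 (core), -1.99 (H1), -2.75 (H2A), -2.80 (H2B) and -2.00 (H4), and the line ratio under drug at 0.81 (core), 1.03 (H1), 0.92 (H2A), 1.19 (H2B), 1.32 (H3, an interval then above 0) and 0.46 (H4, reversed from -0.35). The difference of responses became 2.21 (core), 2.08 (H1), 2.48 (H2A), 2.67 (H2B) and 1.44 (H4). With it, 40 genes were lower with drug in sensitive cells, against 23, and 1 differed between lines under drug, against 0. Without the most abundant entry, the H4 drug ratio in resistant cells was -0.39. Untreated line ratios were then -1.65 (core), -1.48 (H3, with H3C15 left out but its inseparable copy H3C14 kept) and -1.42 (H4). With stem-loop entries alone they were -1.67 (core), -1.93 (H2B) and -1.42 (H4) between untreated lines. Drug ratios in resistant cells were then -0.34 (core) and -0.22 (H4), and the H4 difference of responses was 1.10. No H1 entry matched the stem-loop pattern, so H1 has no such value. A 99% interval left 0, 15 and 10 genes beyond 2-fold, and a minimum of 50 counts left 0, 12 and 9, against 1, 23 and 16 with drug in resistant cells, with drug in sensitive cells and between untreated lines. Entries with 10 counts outside untreated sensitive cells, an alternative chosen after seeing the data, left 15 with drug in sensitive cells and 7 between untreated lines; copy pairs summed, also chosen then, left 20 and 16. The cause of these shifts was not tested. No paired analysis was possible because each group had 1 library with no replicate number, and for the same reason no replicate could be left out. Protein-coding depth, 215894 to 435351 counts, limits single genes.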

Other observations

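The chromosome 1 and chromosome 6 copies of a class can be set side by side. H3 entries on chromosome 1 had 7 counts in treated and 40 in untreated resistant cells, and 5 in treated and 250 in untreated sensitive cells; those on chromosome 6 had 35 in treated and 61 in untreated resistant cells, and 16 in treated and 323 in untreated sensitive cells. H2A entries on chromosome 1 had 118 in treated and 130 in untreated resistant cells, and 68 in treated and 558 in untreated sensitive cells; those on chromosome 6 had 35 in treated and 76 in untreated resistant cells, and 33 in treated and 335 in untreated sensitive cells.

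The entries at 0 in all libraries were H1-6, H1-7, H1-8, H2AC1, H2BC6, H3C11, H4C13 and H4C7. Those with 1 to 9 counts at most were H1-1, H2AC12, H2AC16, H2BC1 and H3C6. H1-6, H2AC1 and H2BC1 are known as testis-expressed histones and H1-8 as an oocyte linker histone.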
